A study of Drosophila melanogaster with 8 samples.

Results

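The Drosophila annotation names 262 microRNA genes, taken here as every gene whose symbol begins with mir-, among 17873 genes in all. Each entry is a hairpin of 50 to 174 bp, and 260 of them lie on the 7 assembled chromosomes while the other 2 lie on a ribosomal DNA scaffold. A microRNA gene was linked to a CDK9 peak when the peak overlapped the hairpin or ended within 1500 bp of it, and 55 of the 262 had such a peak in at least 1 library. Because the rule measures distance to a hairpin, it says nothing of which start produced a microRNA.

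CDK9 was mapped by ChIP-seq in Kc167, a female line of embryonic hemocyte (blood cell) character. Cells were either mock-treated, which means carried through transfection without RNA, or treated with siAGO2, an RNA against the small RNA effector AGO2, and were collected 3 days later. There were 2 CDK9 libraries in each group, mock replicates 1 and 2 and siAGO2 replicates 1 and 2, each with an input library against which its own peaks were called. All 4 cell samples are from a single cell line, and the labels do not say whether replicates were separate cultures, so p-values measure only the spread between these libraries.

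MicroRNAs are cut from longer RNA polymerase II transcripts. The microprocessor, made of Drosha and Pasha, releases a hairpin from the primary transcript, the export factor Ranbp21 carries it to the cytoplasm, Dicer-1 with Loquacious cuts it to a duplex, and Argonaute-1 carries the mature strand to target messenger RNAs, which pair mainly through the seed near its 5′ end. Argonaute-2, the protein targeted here, is the main effector of small interfering RNAs in the fly and also takes up some microRNAs. A hairpin may sit in an exon of its own noncoding primary transcript, in an intron of a protein-coding host, or on the strand opposite a gene, and in a mirtron the hairpin is a whole short intron released by splicing. CDK9 is the kinase subunit of P-TEFb, which phosphorylates RNA polymerase II and its pausing factors when polymerase leaves the promoter-proximal pause, so it is mostly found near starts that are far upstream of many hairpins.

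Mature sequences are shown for microRNAs whose hairpin or host start carried CDK9, and for mir-980, which carried none but has the seed of mir-4968, with the seed (bases 2 to 8) in capitals, read from the RefSeq genome and annotation of the dm6 assembly. All 260 hairpins on the chromosomes matched a RefSeq entry with the same coordinates, and together they had 481 mature products with 426 distinct seeds. The first group shows that microRNAs from the same host transcript can share a seed (mir-279 and mir-996), as can microRNAs from separate hosts (mir-11, mir-13b-2 and mir-2a-1), and the second group gives single hairpins whose values follow.
mir-279 3p, chr3R:29215651-29215672, plus strand: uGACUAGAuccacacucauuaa
mir-996 3p, chr3R:29217244-29217265, plus strand: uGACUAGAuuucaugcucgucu
mir-11 3p, chr3R:21622504-21622524, minus strand: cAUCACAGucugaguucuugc
mir-13b-2 3p, chrX:9091275-9091296, plus strand: uAUCACAGccauuuugacgagu
mir-2a-1 3p, chr2L:19569902-19569924, minus strand: uAUCACAGccagcuuugaugagc
mir-4968 5p, chr3L:11552624-11552645, minus strand: uAGCUGCCacgguuuguugcuu
mir-980 3p, chrX:280188-280209, minus strand: uAGCUGCCuugugaagggcuua
mir-92a 3p, chr3R:25646560-25646581, plus strand: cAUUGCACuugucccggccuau
mir-ban 3p, chr3L:642259-642281, plus strand: uGAGAUCAuuuugaaagcugauu
mir-317 3p, chr3R:10091181-10091204, plus strand: uGAACACAgcuggugguauccagu
mir-282 5p, chr3L:3251038-3251061, plus strand: uAGCCUCUacuaggcuuugucugu
mir-3645 5p, chrX:5622396-5622416, minus strand: gUGAGUGCaggcuguuuauug
mir-9377 3p, chrX:12665247-12665267, plus strand: cUUGAUGGggagaaggagagg

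Of 33 seeds shared by more than 1 hairpin, 17 had no hairpin with a linked peak in any library and 15 had a peak at some hairpins. For 1, the seed of mir-281-1 and mir-281-2, every hairpin had one. These are counts of seeds, so hairpins that share a seed on both arms, such as mir-276a and mir-276b, are counted once for each. The examples that follow were chosen after their values were seen. Of the 14 hairpins with the seed of mir-11, a linked peak in any library was found at mir-11, mir-13b-2 and mir-308 (21.4%), beside 21.0% of all microRNA genes. Within the trio of mir-279, mir-286 and mir-996, mir-279 alone had a linked peak. mir-4968 had one in every library, whereas mir-980, which carries the same seed, had its nearest peak 211846 bp away.

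The DNA under 4 summits is shown because these regions were called in all 4 libraries and stand in different settings. Each window is the 101 bp centred on the highest summit, written on the plus strand of dm6, and capitals mark GAGAG or its reverse complement CTCTC, the core of the repeat bound by the fly promoter factors GAF and CLAMP. All 4 windows shown hold such a match, whereas only 13 of the 23 linked regions called in all 4 libraries do.
upstream of bun, the host of mir-967, chr2L:12461261-12461361: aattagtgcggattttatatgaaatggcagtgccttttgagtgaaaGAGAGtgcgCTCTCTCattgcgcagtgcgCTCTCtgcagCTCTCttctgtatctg
upstream of Mes2, beside mir-9388, chr3L:22945497-22945597: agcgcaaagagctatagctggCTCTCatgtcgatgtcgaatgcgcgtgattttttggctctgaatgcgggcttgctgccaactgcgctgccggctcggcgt
over mir-9377 in Tis11, chrX:12665244-12665344: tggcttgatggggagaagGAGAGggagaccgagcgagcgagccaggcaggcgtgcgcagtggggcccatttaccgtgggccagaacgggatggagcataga
upstream of mir-317, chr3R:10089457-10089557: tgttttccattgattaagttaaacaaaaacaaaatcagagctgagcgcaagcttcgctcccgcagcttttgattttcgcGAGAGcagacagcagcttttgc

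The letters GAGAG or CTCTC, on either strand and with overlapping matches counted once per window, were present in 13 of the 23 linked regions called in all 4 libraries (56.5%), beside 47.8% of all 1022 regions called in 4 libraries. Over all linked regions the share was 29.7% of 64, beside 25.2% of all 5531 regions. A match describes these letters only and says nothing of binding.

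CDK9 peaks lay near a minority of microRNA genes. The 2 mock libraries had a linked peak at 33 and 42 microRNA genes (12.6% and 16.0% of all microRNA genes), and the 2 siAGO2 libraries at 25 and 29 (9.54% and 11.1%). The same rule found a peak at 21.9%, 26.7%, 12.5% and 17.6% of all other genes in the 4 libraries in that order. Hairpins are short, and the 731 other genes of at most 174 bp gave 10.1%, 12.0%, 6.16% and 8.62%. MicroRNA genes were thus below genes of every length and above other short genes in each library, which is a description of the lists and was not tested.

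**Figure D1:**
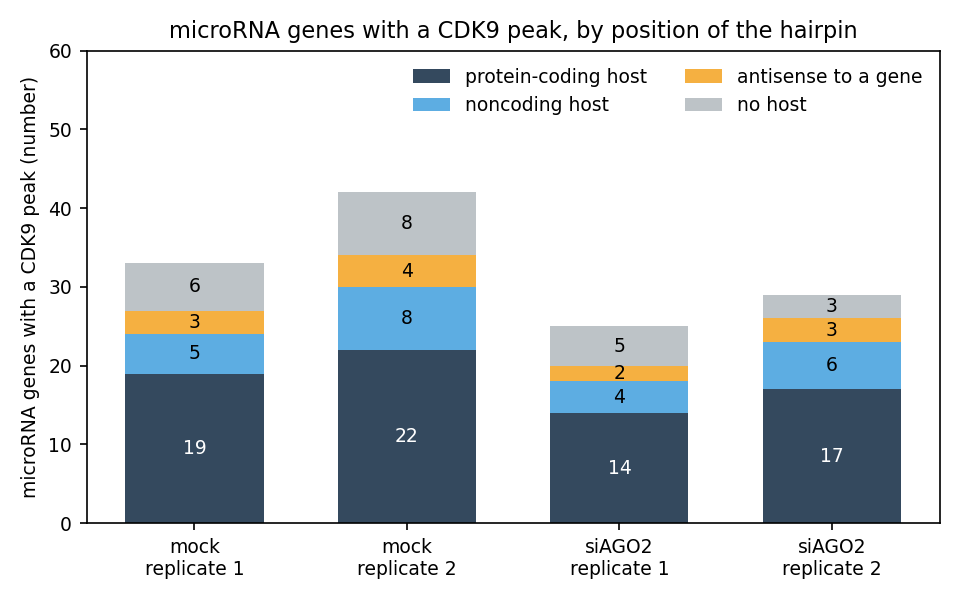
Number of microRNA genes with a CDK9 peak (vertical axis, starting at 0) in each library, divided by where the hairpin lies: in a protein-coding host, in a noncoding host, antisense to a gene, or with no host. The bars reach 33, 42, 25 and 29, and hairpins in protein-coding hosts make up the largest block in each library.

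The same hairpins recurred. A peak was linked in all 4 libraries at 19 microRNA genes, beside 8.8% of all other genes and 2.87% of other short genes, while 4 had one in 3 libraries, 9 in 2 and 23 in 1. Those seen in 1 library came mostly from mock, where replicates 1 and 2 gave 8 and 10, against 2 and 3 from the siAGO2 replicates. The mock lists were also longer, with 3103 and 3804 peaks against 1707 and 2295, and the same split was not counted over other genes. No library had a linked peak at the remaining 207, and the any-library count of 55 compares with 34.7% of other genes and 18.5% of other short genes.

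Each kind of location was represented among the 55. Of 136 hairpins in a protein-coding host, 31 had a peak in any library and 11 in all 4. Of 46 in a noncoding host, 8 had a peak in any library and 4 in all 4, of 27 antisense to a gene 4 and 2, and of 53 with no host 12 and 2. By distance, of 119 hairpins within 1500 bp of another gene's start 45 had a peak (37.8%), and of 141 farther away 10 had one (7.09%). Neither the split by location nor that by distance was counted over other genes. Most peaks of each list lay near a start, as the last shares of this paragraph show, so these counts are no trait of microRNA genes alone. The peak itself also lay within 1500 bp of a start for 78.8%, 88.1%, 88.0% and 86.2% of the linked microRNA genes in the 4 libraries. Counted by peak, the shares were 83.3%, 81.5%, 85.7% and 81.25% of linked peaks. All peaks of the lists gave 71.7%, 83.1%, 85.5% and 82.4%, so linked peaks were higher only in mock replicate 1 and siAGO2 replicate 1.

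Only 7 hairpins were overlapped by a peak in any library. Among the 19 with a peak in every library, the summit of the highest linked peak was upstream of the hairpin in all 4 libraries for 14 and downstream in all 4 for 4, and in mir-9377 it fell inside the hairpin or just past it.

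**Figure D2:**
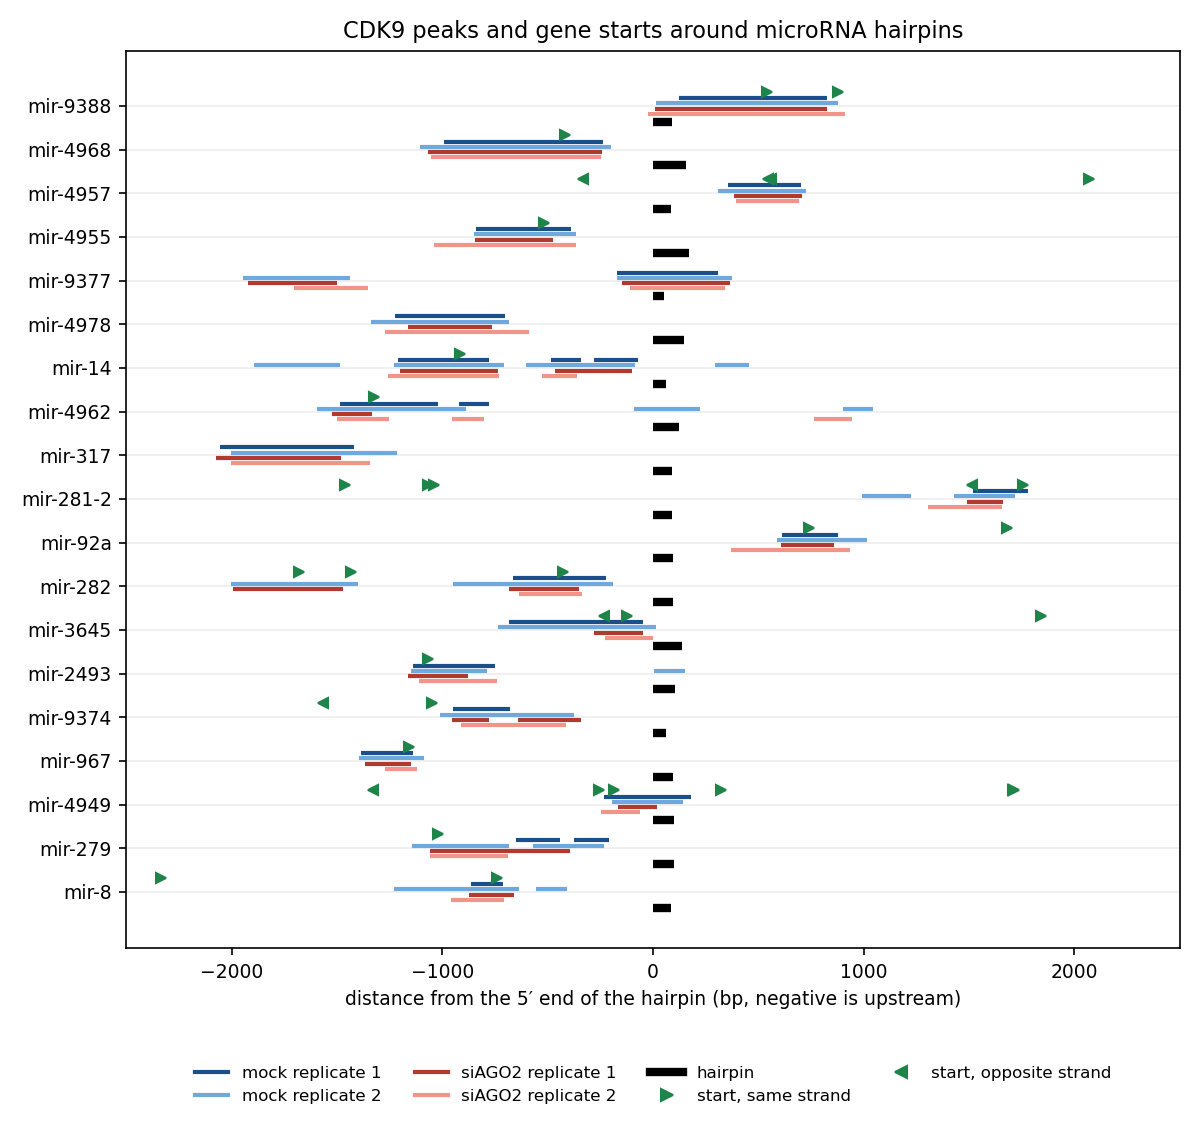
CDK9 peaks (coloured lines, 1 row of 4 per microRNA gene), hairpins (black bars) and gene starts (green arrowheads, pointing right for the strand of the hairpin) against distance in bp from the 5′ end of the hairpin, with negative values upstream. For 14 of the 19 hairpins the highest peak of each library has its summit upstream, often at a start. At mir-9377 the highest peaks cover the hairpin. Lower peaks of some hairpins lie elsewhere.

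Peak height is given as fold over the local background at the summit, as the peak caller reports it, and as the percentile of the peak by −log10 q within its own list, where 100 is the highest. The genome-wide background, solved from the peak values, was 2.29 and 1.21 reads in the mock libraries and 0.814 and 0.864 reads in the siAGO2 libraries, so a given fold rests on more reads in mock replicate 1. Folds are not comparable between libraries on that account, and the percentile is used across them. It has a limit of its own, since it is set in part by how many weak peaks a list holds, and the lists differ in length. Both mock percentiles were above both siAGO2 percentiles at 45.2% of other genes with a peak in all 4 libraries, and the reverse held at 3.31%. A higher mock pair at a single hairpin below is to be read beside those shares.

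Hairpins with a transcript of their own come first. mir-282 lies in an exon of lncRNA:CR43626, 428 bp from its start, and its peak reached 3.41-fold and 7.59-fold in mock replicates 1 and 2 and 7.44-fold and 4.66-fold in siAGO2 replicates 1 and 2. The percentiles of these highest linked peaks, 62.5, 89.3, 83.8 and 64.1, overlapped between the groups but come from 2 regions. In siAGO2 replicate 1 the highest linked peak was at a second start of the same transcript, with a summit 1794 bp upstream of the hairpin, whereas the other 3 summits were 415 to 525 bp upstream. The region at that second start was called in all 4 libraries, though not always within the distance limit. Its percentiles were 86.8 and 88.1 in mock and 83.8 and 58.2 in siAGO2, so the mock pair was higher there. At the nearer region siAGO2 replicate 1 had a percentile of 51.8.

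mir-279, which keeps carbon dioxide-sensing neurons from forming in the wrong place, lies 1023 bp downstream of the start of lncRNA:CR31044, a transcript it shares with mir-996. Its peak was among the lower ones, at 4.31-fold and 3.91-fold in mock and 4.79-fold and 4.25-fold in siAGO2. The percentile was 77.7 in mock replicate 1 and between 25.3 and 37.6 in the other 3, so mock replicate 1 stood apart and the groups overlapped. mir-996, 2622 bp from the same start, had no peak within 1500 bp, and its nearest one was 1810 bp away.

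mir-14, a microRNA that limits cell death and fat storage, lies in an exon of lncRNA:CR43651 at chr2R:9553762-9553824. Its peak was 5.33-fold and 10.7-fold in mock and 13.3-fold and 5.85-fold in siAGO2, and the 4 summits were 22 to 96 bp upstream of the start of the lncRNA. The 2 percentiles in each group, 86.5 and 95.4 in mock and 94.9 and 79.0 in siAGO2, overlapped.

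mir-8, the fly member of the miR-200 family and a regulator of growth and of the GATA cofactor u-shaped, lies 743 bp downstream of the start of lncRNA:CR43650. Its peak was 3.12-fold and 8.08-fold in mock and 3.42-fold and 3.53-fold in siAGO2, on 19, 21, 11 and 12 summit reads. The percentiles were 25.6 and 82.1 in mock and 3.52 and 9.65 in siAGO2, so both siAGO2 libraries were below both mock libraries, while the mock libraries lay far apart.

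The bantam gene, mir-ban, promotes growth and blocks apoptosis, and it and mir-184 are described here after their values were seen. The hairpin lies in an exon of lncRNA:CR43334, 2494 bp from its start, and a peak was linked in mock replicate 2 (5.54-fold, percentile 81.4) and siAGO2 replicate 2 (4.74-fold, percentile 53.6). The region that holds both peaks was called in all 4 libraries, at percentiles of 31.5 in mock replicate 1 and 20.7 in siAGO2 replicate 1, where the peak ended beyond the distance limit. Within 1500 bp of a start of lncRNA:CR43334, every library had a higher peak than this. Mock replicates 1 and 2 ranked it at percentiles 97.1 and 97.0, and siAGO2 replicates 1 and 2 at 75.2 and 95.1. mir-184 was linked in 3 libraries. Its highest linked peaks had percentiles of 21.2 and 69.8 in mock and 11.2 in siAGO2 replicate 2, but come from 2 regions. The nearer region had percentiles of 21.2 and 53.1 in mock and 11.2 in siAGO2 replicate 2. The farther one had 18.5 and 69.8 in mock and 48.9 in siAGO2 replicate 2, and only its peak in mock replicate 2 was within the distance limit. The host of mir-184, lncRNA:CR44206, likewise had a higher peak near a start in every library, at percentiles 85.7, 86.1, 77.4 and 86.6 (same library order).

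Of hairpins in protein-coding hosts with a peak in all 4 libraries, mir-4968 had the highest mean percentile, although others were higher by fold in each library. It lies in an intron of Mob2, which encodes a kinase co-activator, 419 bp from the start, and its folds were 7.01 and 9.25 in mock and 7.45 and 9.93 in siAGO2. The percentiles of 96.1 and 96.6 in mock were above those of 91.6 and 94.1 in siAGO2. mir-4955, in an exon of trol (the basement membrane proteoglycan perlecan), gave folds of 7.58, 9.40, 6.31 and 9.56 in the same order and percentiles of 96.6, 95.5, 86.5 and 95.5.

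mir-9377 differed in position. It lies in an intron of Tis11, whose product destabilises messenger RNAs with AU-rich elements, 4683 bp from the nearest start of that gene, and each of the 4 libraries had a peak across the hairpin. The folds were 7.55 and 11.6 in mock and 9.31 and 6.30 in siAGO2, with summits 24 to 77 bp from the 5′ end of the hairpin. Percentiles were 94.5 and 95.6 in mock and 88.7 and 82.3 in siAGO2, so the mock pair was higher. The summit window printed above for this region includes the whole 3p product of mir-9377.

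mir-3645 is a whole intron of Mlc-c, a cytoplasmic myosin light chain gene, in the layout of a mirtron. It was the only hairpin of that layout with a peak in all 4 libraries, against 11 with a peak in any library and 22 with none. Its peak, at the Mlc-c start 123 bp away, was 4.99-fold and 6.73-fold in mock and 6.55-fold and 4.35-fold in siAGO2, with percentiles of 82.6 and 82.0 in mock above 75.3 and 42.9 in siAGO2.

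mir-92a was linked through a start downstream of it. The hairpin lies in an intron of jigr1, and the peak was at an inner jigr1 start with summits 718 to 735 bp downstream of the 5′ end of the hairpin. The folds were 5.22 and 4.95 in mock and 8.43 and 5.91 in siAGO2, and the percentiles of 86.7, 65.5, 79.0 and 72.2 overlapped. For mir-281-2, in an exon of the antizyme gene Oda, the linked peak was likewise on the far side, at the start of SmD3, a core spliceosomal protein gene, with percentiles of 80.5, 81.1, 73.3 and 80.7.

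The remaining 5 hosted hairpins with a peak in every library each had it near a start of the host. These were mir-4962 in Tlk, a chromatin-linked kinase (percentiles 75.5 to 89.0), mir-2493 in CG42788 (54.7 to 81.5), and mir-9374 in the nuclear receptor gene Hr39 (51.1 to 72.8). mir-967 in bun, a TSC22-family transcription factor gene, ranged from 37.6 to 76.8, and mir-4949 in ATPsynC, the gene of subunit c of ATP synthase, from 42.0 to 79.4. The mock and siAGO2 percentiles overlapped at each of the 5.

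Hairpins antisense to a gene or outside genes included the one with the highest mean percentile of the 19. This was mir-9388, which was 450 bp from the start of Mes2 and reached 6.63-fold and 14.0-fold in mock and 9.31-fold and 14.3-fold in siAGO2, with percentiles of 94.3, 97.1, 91.7 and 97.1. mir-4957 lies on the strand opposite an intron of Top1, the topoisomerase I gene, and its peak at the Top1 start reached 7.67-fold and 12.2-fold in mock and 16.0-fold and 11.4-fold in siAGO2. Both sets of percentiles overlapped between groups.

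mir-4978 lies opposite an intron of mam, the gene of the Notch co-activator Mastermind, and its peak was 2217 to 2295 bp from the nearest annotated start. The folds were 4.64 and 7.18 in mock and 12.2 and 7.57 in siAGO2. mir-317 had no host either, and its peak was 1578 to 1706 bp upstream of the hairpin and 4213 to 4341 bp from the nearest start, that of lncRNA:CR43459. Its folds were 6.37 and 7.46 in mock and 4.62 and 8.10 in siAGO2, and percentiles of 90.4 and 89.4 in mock exceeded 56.3 and 87.1 in siAGO2.

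**Figure D3:**
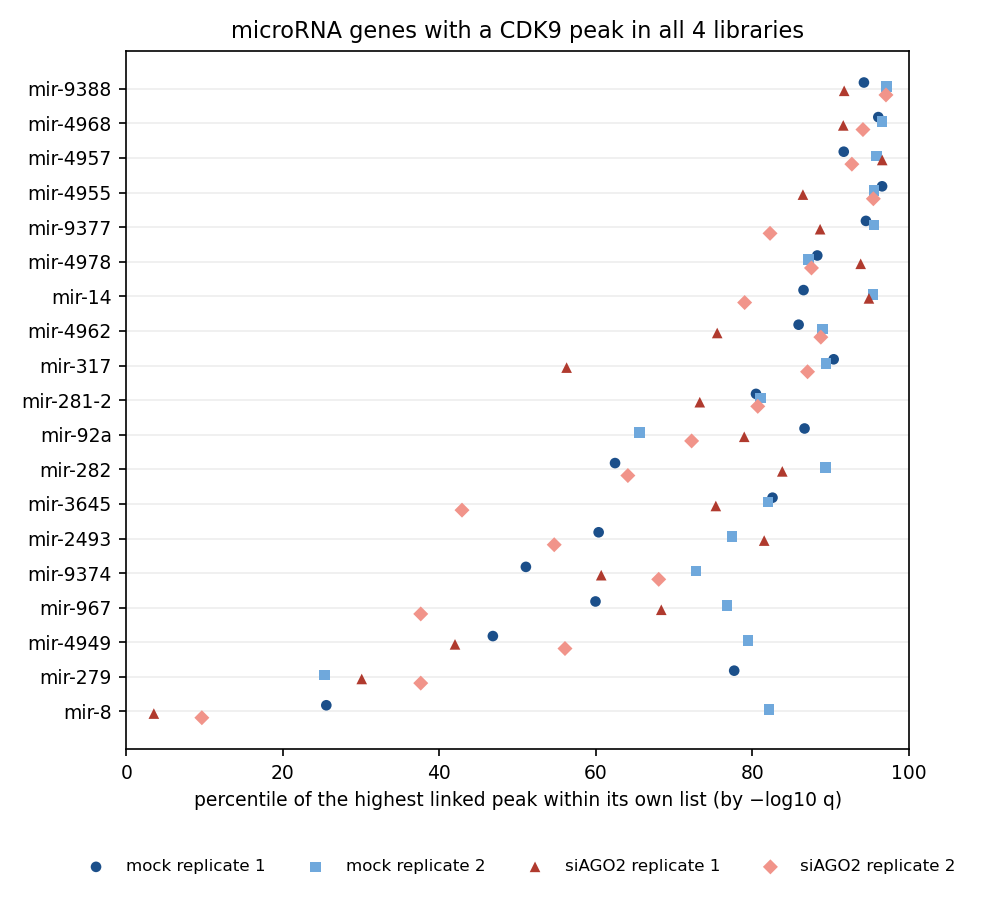
Percentile of the highest linked peak by −log10 q within its own list (horizontal axis, 0 to 100) for the 19 microRNA genes with a peak in all 4 libraries, 1 point per library. Points of mir-9388, mir-4968 and mir-4957 stay above 91, while those of mir-8 run from 3.52 to 82.1.

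A hairpin can lie far from the start that CDK9 marks, so the starts of hosts were examined separately. The 182 hosted hairpins have 157 distinct host entries, where genes that hold the same hairpin are joined and their starts pooled. A gene can thus recur, as jigr1 does alone and joined with lncRNA:CR45917. Of these entries, 36 (22.9%) had a peak within 1500 bp of a start in all 4 libraries. The share was 6.92% of all single genes that are no microRNA gene, hosts included. By library the host counts were 50 and 64 in mock and 46 and 52 in siAGO2, or 31.8%, 40.8%, 29.3% and 33.1% of 157, beside 16.4%, 22.2%, 10.2% and 14.1% of other genes. The other genes were not matched to hosts by length or number of starts. A host entry can have several starts, 8 at Tlk for example, and a peak near any of them meets the rule. Whether the shares differ between hosts and matched genes was not tested.

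The host start was marked in all 4 libraries for 46 hosted hairpins, and 26 of these had no peak within 1500 bp of the hairpin. Hosts with 2 or more hairpins and a start peak in every library were picked after their values were seen. grp, the gene of the checkpoint kinase Chk1, hosts mir-9c, mir-306, mir-79 and mir-9b, and its start peak was 7.95-fold and 11.3-fold in mock and 7.14-fold and 13.7-fold in siAGO2. spi, which encodes the EGF receptor ligand Spitz, hosts mir-2a-1, mir-2a-2 and mir-2b-2 and gave 5.64-fold, 11.6-fold, 5.32-fold and 7.63-fold in that order. Gmap, a golgin gene, hosts mir-283, mir-304 and mir-12 and gave 6.47-fold, 10.1-fold, 5.32-fold and 8.36-fold.

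The hosts in this paragraph were also picked after their values were seen. E2f1, the cell cycle transcription factor gene, hosts mir-998 and mir-11, and its start peak was 7.51-fold and 16.4-fold in mock and 10.3-fold and 12.4-fold in siAGO2. Near the hairpins themselves a peak was called only in mock replicate 1 (3.35-fold, percentile 28.2). lncRNA:CR43459, the transcript of mir-277 and mir-34, had a start peak in every library but mock replicate 1, at 4.27-fold in the other mock library and 5.10-fold and 4.34-fold in siAGO2. No start peak was called in any library for lncRNA:CR44504, which holds 8 hairpins from mir-309 to mir-6-3, nor for lncRNA:CR45911 with mir-13b-1, mir-13a and mir-2c.

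Several microRNAs known from other tissues had no linked peak, as did 207 of all 262 microRNA genes, and are named here after their values were seen. Not every such microRNA lacked one, since mir-279, given above with a role in neurons, had a linked peak in all 4 libraries. The nearest peak was 24433 bp from mir-1, which acts in muscle, 64478 bp from mir-124, which acts in neurons, and 42665 bp from the Hox cluster hairpins mir-iab-4 and mir-iab-8. The host entry of mir-iab-8 had a start peak in siAGO2 replicate 1 alone (5.51-fold). The let-7 complex, induced by ecdysone at metamorphosis, had its 3 hairpins 5447 to 6328 bp from a peak. A start peak in both mock libraries and none in siAGO2 was seen at 2 hosts, lncRNA:let7C (3.11-fold and 4.17-fold) and Octbeta2R, the host of mir-284 (2.63-fold and 4.04-fold), beside 2.55% of other genes, and the reverse at 0 hosts, beside 0.0969%. A peak that is not called does not show that CDK9 was absent.

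The 1500 bp limit was not at a gap in the distances. Just inside it were mir-998 (1278 bp), mir-4987 (1377 bp) and mir-3642 (1415 bp), with peaks at percentiles 28.2, 4.90 and 39.3 in the nearest library. Just outside were mir-3641 (1613 bp), mir-4961 (1669 bp) and mir-2b-2 (1670 bp), at percentiles 69.4, 16.2 and 15.8.

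Whether depletion of AGO2 went with a different CDK9 occupancy at microRNA genes was asked first by number. MicroRNA genes with a peak averaged 37.5 ± 6.36 in mock and 27.0 ± 2.83 in siAGO2 (SD, n = 2 libraries each), a ratio of 0.72, with each siAGO2 library below each mock library. The exact two-sided permutation test gave p = 0.33, the smallest value that 2 against 2 libraries allow. The lists differ in length in the same direction, with 3103 and 3804 peaks for mock and 1707 and 2295 for siAGO2. When every list was shortened to its highest 1707 peaks, the ratio was 0.962. Linked peaks made up 1.16% and 1.42% of the mock lists and 1.64% and 1.39% of the siAGO2 lists.

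By location, 3 microRNA genes were linked in the mock pair alone, which means in both of those libraries and in no siAGO2 library, beside 3.38% of all other genes and 1.64% of other short genes. mir-314 and mir-956 share such a peak, which lay near the start of Muc68D with folds of 4.20 and 4.79 on 16 and 11 summit reads. The other is mir-1013, a whole intron of wts, the Hippo pathway kinase gene, with folds of 3.43 and 5.65. Its region was also called in siAGO2 replicate 2 (4.74-fold), but there the peak lay beyond the distance limit. The opposite pattern was seen at 0 microRNA genes, beside 0.114% of other genes and 0.0% of other short genes.

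Overlapping peaks of the 4 libraries were merged into 5531 regions, of which 64 were linked to a microRNA gene. Of the linked regions 23 (35.9%) were called in all 4 libraries, beside 18.5% of all regions. A single linked region, that of mir-314 and mir-956, was called in the mock pair alone, beside 6.07% of all regions, and 0 showed the reverse, beside 0.416%.

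Among the 19 microRNA genes with a peak in every library, both mock percentiles were above both siAGO2 percentiles at 6 (mir-8, mir-4968, mir-317, mir-9377, mir-4955 and mir-3645) and the groups overlapped at 13. At mir-4955 that order rests on 95.53 in mock replicate 2 against 95.47 in siAGO2 replicate 2. Mock above siAGO2 also held at 45.2% of the 1543 other genes with a peak in all 4 libraries, and the reverse order at 3.31% of them. The lists of these libraries differ in length, so a percentile is set in part by how many weak peaks a list holds.

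Ranks were then compared over the 1022 regions called in all 4 libraries, which removes the length of the lists. Each region's rank by −log10 q within a library was turned into a normal score and fitted with limma. After Benjamini-Hochberg adjustment over all 1022 regions, 0 of the 23 linked regions passed 0.05, beside 0.0% of all regions, and 0 had an unadjusted p under 0.05, beside 6.46%. The median difference was 0.06 over the linked regions and −0.01 over all regions, with 13 higher and 10 lower in siAGO2.

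The lowest difference was at mir-8, at −1.12 ± 0.511 (SE, limma adjusted p = 0.804), followed by the region over mir-9377 at −0.38 ± 0.388 (limma adjusted p = 0.91) and that of mir-317 at −0.33 ± 0.442 (limma adjusted p = 0.93). The highest were mir-4978 at 0.68 ± 0.407 (limma adjusted p = 0.855), mir-9374 at 0.61 ± 0.359 (limma adjusted p = 0.855) and mir-2493 at 0.57 ± 0.492 (limma adjusted p = 0.91). At mir-8 the difference exceeded its SE by the widest margin, with an unadjusted limma p of 0.0669, and it did not pass after adjustment over all regions. A p that misses the threshold does not show that occupancy was equal.

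**Figure D4:**
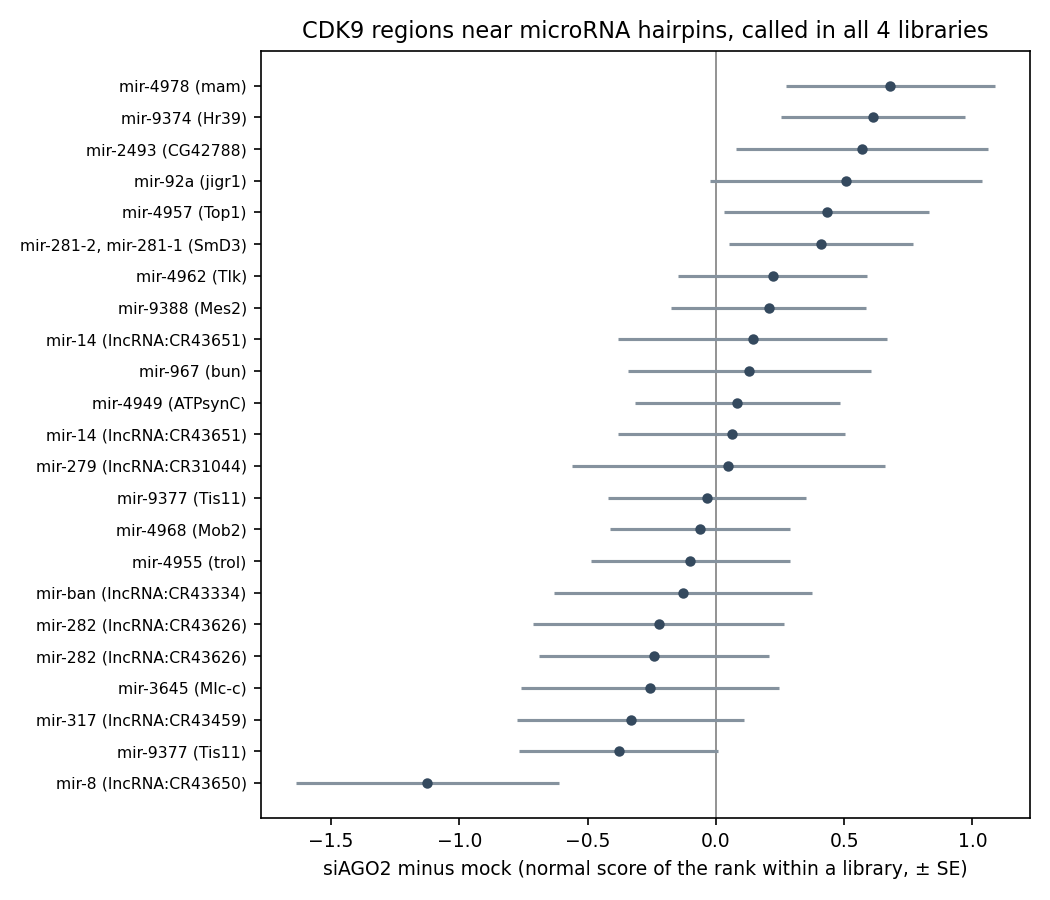
Difference between siAGO2 and mock in the normal score of the rank by −log10 q (horizontal axis, points with SE) for the 23 linked regions called in all 4 libraries, each with the gene of the nearest start in brackets. The region of mir-8 is lowest at −1.12 and that of mir-4978 highest at 0.68, and no region passed an adjusted p of 0.05.

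The genes of the microRNA pathway itself were counted by their starts. Of 18 pathway genes, the mock libraries had a start peak (within 1500 bp) at 3 and 9 (16.7% and 50.0%), and the siAGO2 libraries at 3 and 4 (16.7% and 22.2%), beside 16.4%, 22.2%, 10.2% and 14.1% of other genes in the same order. AGO1, the main microRNA effector, had one in every library at 4.59-fold and 5.70-fold in mock and 8.71-fold and 5.03-fold in siAGO2, and Patr-1, a decapping activator, had 3.31-fold, 5.29-fold, 5.88-fold and 7.13-fold. No library had a start peak at drosha, pasha or loqs, which act in processing, or at gw, me31B, twin, DCP2 or Ge-1, which act in silencing and decay.

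AGO2, the knockdown target, had a start peak in all 4 libraries at 3.70-fold and 8.02-fold in mock and 4.79-fold and 5.93-fold in siAGO2, with overlapping percentiles. A CDK9 peak does not measure AGO2 RNA or protein, so it does not check the knockdown. Of 10 hemocyte markers, 4, 4, 3 and 4 had a start peak in the 4 libraries in order (40.0%, 40.0%, 30.0% and 40.0%), beside the same 16.4%, 22.2%, 10.2% and 14.1% of other genes, with srp and ush in all 4 and Hml, NimC1, eater and crq in none. Start peaks were called at 0 to 1 of 4 neuron markers, 0 of 3 muscle markers and 1 of 3 germline markers, the last being nanos in each library, and lists of 3 or 4 genes are too short to set against those shares.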

How the data were processed

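Libraries were CDK9 ChIP-seq from Kc167 cells, 2 mock and 2 siAGO2, each called against its input. The authors trimmed reads with cutadapt, aligned them to dm6 with Bowtie2, removed multimapping reads and duplicates (Picard) and called peaks with MACS2 2.1.1.20160309 per library, the version in the submitters' processing notes. Multimapping reads are missing from near-identical hairpin copies, such as the mir-10404 genes. The deposited peak lists hold a display score, the fold over local background (a ratio), −log10 p and −log10 q values and the summit offset. No column of per-sample values was left over.

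Genes came from the Ensembl release 115 annotation on the same assembly, without transposable elements and 485 separate entries for mature microRNAs, and sequences from RefSeq. Reads at each summit and their local background were solved from fold and −log10 p (tolerance 0.0005). Peaks of different libraries sharing 1 bp were merged into regions. The regions common to all 4 libraries received a rank by −log10 q, which was converted to a normal score and compared with limma 3.58.1 (R 4.3.3), with Benjamini-Hochberg adjustment. Counts were compared by exact permutation of libraries (scipy 1.17.1). Scripts were tested on simulated data. Intervals for single shares were not computed, since shares are over annotated genes and not sampled reads.

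The members and lists were chosen with earlier results of these data known. The rule for named microRNA genes took those with a peak in all 4 libraries or in both libraries of a single group, the 3 nearest each side of the distance limit, their hosts and nearest starts, and the 3 highest and lowest rank differences. Others named (mir-ban, mir-184, the shared-seed examples, hosts with a distant hairpin, and microRNAs known from other tissues) were chosen after their values were seen. Pathway genes were named where a start peak was in all 4 libraries or none. Alternatives covered distance, peak threshold, list length, summit distance, region overlap, rank measure, replicate block and leaving out each library.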

Additional observations from a re-analysis of the deposited data

How the results depend on the processing

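The ratio of siAGO2 to mock stayed below 1 under each alternative run, at 0.643 to 0.818 for linked microRNA genes and 0.556 to 0.833 for linked peaks when a library was left out, and at 0.962 and 0.965 with every list shortened to its highest 1707 peaks. The difference in the share of linked microRNA genes whose peak was at a start, 3.66 percentage points, reversed to −13.7 with overlap only, −1.40 at 500 bp and −1.18 with peaks above the median −log10 q, and ran from −0.992 (without mock replicate 1) to 8.32 when a library was left out. Its cause was not tested. The linked regions called in both mock and neither siAGO2 library numbered 0 with overlap only, 5 at 5000 bp, 4 where peaks had to overlap by 50% of both, and 3 to 19 when a library was left out. Those of the reverse pattern numbered 2 with the 50% overlap and 0 to 3 when a library was left out, since a group of 1 library is then easier to satisfy. Without mock replicate 1 the first count was 19, without mock replicate 2 it was 10, without siAGO2 replicate 1 it was 3 and without siAGO2 replicate 2 it was 5. The rank fit called 0 linked regions under all 10 alternatives run.

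Pairing by replicate number was not seen in the ranks, where deviations of same-numbered libraries correlated at 0.00101 over 1022 regions. The labels do not say how replicates were made, and whether same-numbered libraries shared a culture or batch was not tested. With the replicate number as a block the ratios were 0.724 and 0.685, the difference in share was 3.66 percentage points, and limma called 0 linked regions and 2 of all regions. Peak lists hold called sites only, so weak occupancy below the threshold was not measured, and with 2 libraries a group no exact test can pass 0.05.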
